A study of Saccharomyces cerevisiae with 8 samples.

Results

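The 41 genes described here build and run the degradative end of the yeast vacuole. They comprised 9 vacuolar hydrolases, 15 subunits of the vacuolar proton pump (V-ATPase), 3 factors that assemble the pump in the endoplasmic reticulum, 2 subunits of the RAVE complex, and 12 genes for the docking and fusion of membranes at the vacuole. The rule that names them goes by function and uses no measured value, although the list was drawn up with earlier results of these data known. The list held 42 names, of which *APE1* and *LAP4* are the same gene, and all 41 genes were measured, each by 1 probe set, among 5444 genes in all.

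Transcript levels came from Affymetrix GeneChip Yeast Genome 2.0 arrays of *Saccharomyces cerevisiae* CEN.PK113-11C, a haploid laboratory strain of mating type α with the alleles *his3Δ1*, *ura3-52*, *MAL2-8c* and *SUC2*, which all groups share. The L-UBB+1 strain carried the p413 TEF-UBB+1 plasmid, from which human UBB+1, a frameshifted form of ubiquitin B, is expressed constitutively and at a low level from the TEF promoter. The control strain carried the p413 TEF-EP plasmid with no insert. Both strains grew in shake flasks in synthetic dextrose medium without histidine and were sampled in stationary phase on day 6, after the carbon source had been used up (D6), and in exponential phase (EX), which gave 4 groups of 2 biological replicates, L-UBB+1 at D6, control at D6, L-UBB+1 at EX and control at EX. The UBB+1 transcript itself was not measured here, so no value checks which strain an array came from, and each strain stands for the transformants of 1 plasmid.

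The vacuole is the lysosome of yeast. Its hydrolases are made as inactive precursors and mature in the vacuole in a cascade that starts with proteinase A, the product of *PEP4*. The V-ATPase acidifies the lumen with a soluble V1 sector, which hydrolyses ATP, and a membrane V0 sector, through which protons pass, and the sectors come apart reversibly when glucose is withdrawn. Vesicles, endosomes and autophagosomes deliver their cargo when the Rab GTPase Ypt7, the HOPS tethering complex and a set of SNARE proteins bring their membranes into fusion with the vacuole.

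The labels of growth phase were checked before any comparison with 15 genes known to be high after glucose exhaustion, such as *ADH2*, *JEN1* and *HXT5*, and 10 genes known to be high during growth on glucose, such as *HXT3* and *CLN2*. The median log2 level of the exhaustion genes was 11.96 and 11.57 on the L-UBB+1 D6 arrays, against 6.72 and 6.74 on the control D6 arrays, and 11.55 and 11.86 on the L-UBB+1 EX arrays, against 7.35 and 6.91 on the control EX arrays. The median of the growth genes was 7.47 and 7.51 on the L-UBB+1 D6 arrays, against 10.46 and 10.69 on the control D6 arrays, and 7.57 and 7.38 on the L-UBB+1 EX arrays, against 10.11 and 10.20 on the control EX arrays. By these medians both L-UBB+1 groups resembled cells that had used up glucose and both control groups cells growing on it, which goes against the labels of L-UBB+1 EX and control D6. Of the exhaustion genes 11 were called higher in L-UBB+1 in both phases, and all 10 growth genes were called lower. The other 4 exhaustion genes, *HSP12*, *HSP26*, *CTT1* and *SNZ1*, were called in neither phase, and *CTT1* averaged 8.34 on the L-UBB+1 EX arrays, against 9.05 on the control EX arrays. The arrays labelled L-UBB+1 D6 replicate 2 and L-UBB+1 EX replicate 1 differed by an SD of 0.086 over all genes, and L-UBB+1 D6 replicate 1 and L-UBB+1 EX replicate 2 by 0.14, whereas replicates of 1 group differed by 0.20 to 0.29. Whether the labels of L-UBB+1 EX and control D6 were exchanged could not be settled from these arrays. If they were, the 2 strains in 1 phase would be the arrays compared below as the 2 phases of 1 strain. Group names below are those of the labels, every difference between the strains is equally one between arrays of unlike marker pattern, and strain and growth state cannot be told apart in it.

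Levels are deposited log2 values. Differences were tested with limma as L-UBB+1 over control, with Benjamini-Hochberg adjustment over the 5444 genes. To be called, a gene needed an adjusted p below 0.001 together with a log2 fold change that reached 1 in either direction, and a looser threshold of adjusted p below 0.05 at any fold is given beside it. Errors of log2 fold changes are moderated SE, from 1 spread per gene estimated over all 4 groups of 2 arrays. They are therefore the same at D6 and EX and do not show the scatter of the 2 groups compared. Array levels of different genes depend on their probes and are not compared with each other.

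Most of the 41 genes were lower on the L-UBB+1 arrays, with the proton pump moving as a block, while proteinase B and the mannosidase *AMS1* went the other way. Of the 41 members, 2 were called as higher and 14 as lower at D6, beside a background of 17.9% (higher) and 18.5% (lower) among all genes. The EX arrays gave 1 member called as higher and 13 as lower, beside a background of 17.2% (higher) and 17.1% (lower). The shares of members called lower were thus above the background of all genes and the shares called higher below it. The excess of lower calls lay in the pump, where 10 of 18 subunit and assembly genes were called lower at D6 and 9 at EX. Outside it the shares were near the background. In each phase 2 of 9 hydrolases (22.2%) and 2 of 12 fusion genes (16.7%) were called lower, and 0 of the 2 RAVE genes. The median log2 fold change of the members was -0.74 at D6 and -0.87 at EX, while that of all genes was -0.0075 at D6 and 0.0032 at EX.

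At the looser threshold, 7 members were higher and 28 lower at D6, beside 37.7% (higher) and 38.4% (lower) of all genes, and 7 were higher and 29 lower at EX, beside 37.2% (higher) and 37.5% (lower). Of the members, 12 were called in both phases (1 higher and 11 lower), 4 at D6 alone, 2 at EX alone and none in opposite directions, while of all genes 1631 were called in both, 348 at D6 alone, 236 at EX alone and none in opposite directions. The members thus shared their calls about as all genes did. The 2 comparisons are not independent, since they share 1 estimate of the spread per gene. Each L-UBB+1 array also lay closer to 1 array of the other phase than to its own replicate. Control D6 replicate 2 did so narrowly, with an SD of 0.248 from control EX replicate 2 and of 0.256 from its own replicate. A call in both phases is therefore not a replication. Which calls differ between the phases was tested separately below. The 2 L-UBB+1 arrays did not overlap with the 2 control arrays for 36 of the 41 members at D6 and for 38 at EX, against 4766 and 4827 of the 5444 genes.

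**Figure D1:**
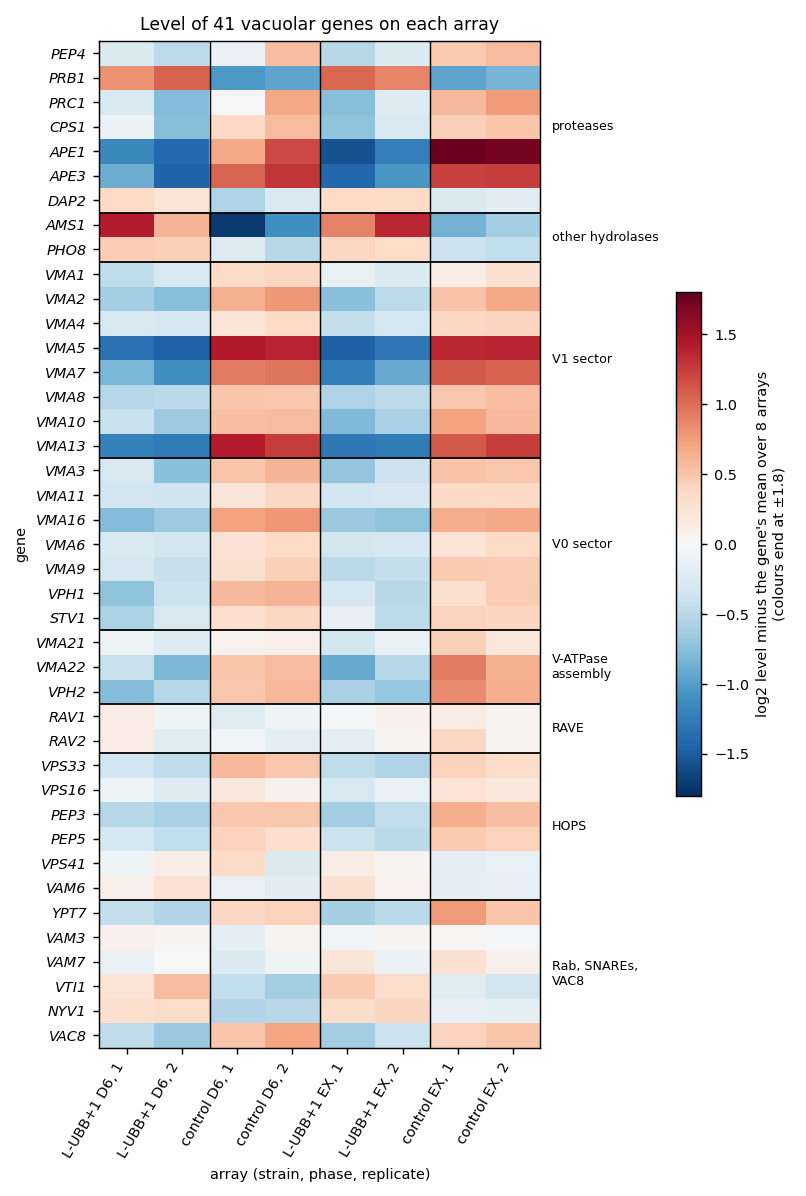
Levels of the 41 genes on each of the 8 arrays, as the log2 value minus the mean of that gene over the arrays (colour, limited to 1.8 in size), with genes down the page in functional groups and arrays across it, L-UBB+1 left of control within each phase. The V-ATPase rows are low on all 4 L-UBB+1 arrays and high on all 4 control arrays, and *PRB1* and *AMS1* show the opposite pattern.

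The hydrolases split. *PRB1* and *AMS1* were higher on the L-UBB+1 arrays and the aminopeptidases *APE1* and *APE3* lower, while the remaining 5 hydrolases were not called in either phase. At D6, 2 of 9 were called higher and 2 lower (22.2% each), beside 17.9% and 18.5% of all genes. At EX, 1 was called higher (11.1%) and 2 lower (22.2%), beside 17.2% and 17.1%. With 9 genes, these shares are near those of all genes. All 9 passed the looser threshold in both phases, 4 of them higher and 5 lower.

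*PRB1* encodes proteinase B, a serine protease that cleaves the precursors of other vacuolar enzymes. It measured 11.66 and 11.91 on the L-UBB+1 D6 arrays, against 9.81 and 9.89 on the control D6 arrays, and 11.89 and 11.72 on the L-UBB+1 EX arrays, against 9.90 and 10.02 on the control EX arrays. All 4 L-UBB+1 arrays stood above all 4 control arrays. The log2 fold change was 1.93 ± 0.12 at D6 (3.81-fold, adjusted p = 6.93e-06) and 1.85 ± 0.12 at EX (3.60-fold, adjusted p = 8.47e-06). *PRB1* was the one member called higher in both phases.

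*AMS1* encodes vacuolar alpha-mannosidase, which reaches the vacuole straight from the cytosol as cargo of the cytoplasm-to-vacuole targeting (Cvt) route. Its level was 10.52 and 9.71 on the L-UBB+1 D6 arrays, against 7.37 and 7.997 on the control D6 arrays, and 9.99 and 10.45 on the L-UBB+1 EX arrays, against 8.25 and 8.49 on the control EX arrays. The groups did not overlap in either phase, although the L-UBB+1 D6 replicates lay 0.80 apart, the widest replicate gap of any member in that group. The log2 fold change was 2.43 ± 0.31 at D6 (5.39-fold, adjusted p = 0.000235). That call was lost once control D6 replicate 1 was left out, at 2.12 (adjusted p = 0.00275). At EX the log2 fold change was 1.85 ± 0.31 (3.61-fold) with an adjusted p of 0.00107, just outside the threshold.

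*APE1*, the aminopeptidase I gene, codes for the best known Cvt cargo, so the 2 Cvt enzymes of the list stood on opposite sides. *APE1* measured 7.45 and 7.22 on the L-UBB+1 D6 arrays, against 9.30 and 9.80 on the control D6 arrays, and 7.05 and 7.38 on the L-UBB+1 EX arrays, against 10.39 and 10.33 on the control EX arrays. It had the lowest log2 fold change of any member at EX, -3.15 ± 0.19 (8.85-fold lower, adjusted p = 6.39e-06), beside -2.22 ± 0.19 at D6 (4.65-fold lower, adjusted p = 2.89e-05). The control arrays were lower at D6 than at EX, whereas the L-UBB+1 arrays of the 2 phases overlapped. *APE3*, which encodes aminopeptidase Y, measured 9.02 and 8.48 on the L-UBB+1 D6 arrays, against 10.97 and 11.20 on the control D6 arrays, and 8.51 and 8.87 on the L-UBB+1 EX arrays, against 11.15 and 11.16 on the control EX arrays. The L-UBB+1 arrays were all below the control arrays, with log2 fold changes of -2.33 ± 0.20 at D6 (5.03-fold lower, adjusted p = 2.94e-05) and -2.46 ± 0.20 at EX (5.52-fold lower, adjusted p = 2.34e-05).

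*PEP4*, whose product starts the maturation cascade, measured 10.45 and 10.23 on the L-UBB+1 D6 arrays, against 10.58 and 11.26 on the control D6 arrays, and 10.19 and 10.46 on the L-UBB+1 EX arrays, against 11.17 and 11.27 on the control EX arrays. Its log2 fold change was -0.58 ± 0.22 at D6 (adjusted p = 0.0416) and -0.89 ± 0.22 at EX (adjusted p = 0.00691), which passed the looser threshold alone. The D6 value was -0.24 without control D6 replicate 2 (adjusted p = 0.226) and -0.47 without L-UBB+1 D6 replicate 2 (adjusted p = 0.15), and without either control EX array its adjusted p was 0.0655. The EX value missed the looser threshold without both L-UBB+1 EX replicate 1 and L-UBB+1 D6 replicate 2 (-0.76, adjusted p = 0.0577). *PRC1*, the carboxypeptidase Y gene, moved likewise, with -0.87 ± 0.28 at D6 (adjusted p = 0.0236) and -1.17 ± 0.28 at EX (adjusted p = 0.0065), and its D6 value was -0.53 without control D6 replicate 2 (adjusted p = 0.154) and -0.62 without L-UBB+1 D6 replicate 2 (adjusted p = 0.115). The carboxypeptidase S gene *CPS1* was lower by 1.87-fold at D6 and 1.95-fold at EX, again past the looser threshold alone, and without control D6 replicate 2 its D6 value of -0.80 missed it (adjusted p = 0.0569). Without L-UBB+1 D6 replicate 2 the D6 value of *CPS1* was -0.57 (adjusted p = 0.0338).

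2 further hydrolase genes were modestly higher. *PHO8* encodes the vacuolar alkaline phosphatase, and it measured 10.81 and 10.80 on the L-UBB+1 D6 arrays, against 10.14 and 9.87 on the control D6 arrays, and 10.75 and 10.70 on the L-UBB+1 EX arrays, against 9.98 and 9.93 on the control EX arrays. The groups were well apart, and the adjusted p passed 0.001 at both phases (0.000336 and 0.000437), but the log2 fold changes of 0.80 ± 0.11 at D6 and 0.77 ± 0.11 at EX stayed under the fold needed for a call. *DAP2*, for dipeptidyl aminopeptidase B, was 1.65-fold higher at D6 (adjusted p = 0.000823) and 1.497-fold higher at EX (adjusted p = 0.00263).

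**Figure D2:**
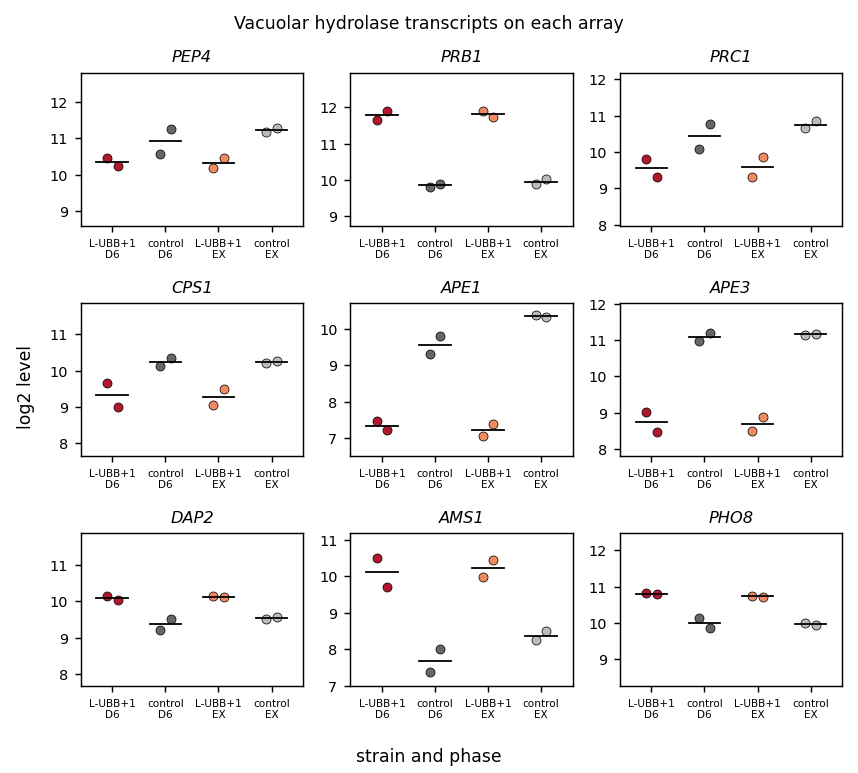
Log2 level (vertical axis) of the vacuolar hydrolases on each array, with L-UBB+1 left of control within D6 and EX, each point 1 array and each bar the mean of 2. *PRB1* and *AMS1* lie higher in L-UBB+1, *APE1* and *APE3* lie 2.22 to 3.15 log2 units lower, and the 2 arrays of a group scatter most for *AMS1* and *PRC1*.

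The V-ATPase genes moved together. All 15 subunit genes were lower on the L-UBB+1 arrays in both phases at adjusted p under 0.05. Of all genes, 38.4% were so at D6 and 37.5% at EX. Called lower were 8 subunits at D6 (53.3%) and 7 at EX (46.7%), beside 18.5% and 17.1% of all genes, and none was called higher. The L-UBB+1 and control arrays of a phase did not overlap for any of the 15, nor for 4766 (D6) and 4827 (EX) of the 5444 genes. The median level of the subunits was 9.37 and 9.24 on the L-UBB+1 D6 arrays, against 10.44 and 10.51 on the control D6 arrays, and 9.12 and 9.24 on the L-UBB+1 EX arrays, against 10.45 and 10.48 on the control EX arrays. Their median log2 fold change was -1.08 at D6 and -1.03 at EX, with a range of -2.79 to -0.57 at D6 and of -2.74 to -0.39 at EX. Without control D6 replicate 1, or without control D6 replicate 2, the D6 count of called subunits was 5, since the adjusted p of *VMA3*, *VMA10* and *VPH1* then lay between 0.00142 and 0.00847. The calls of *VMA3* and *VMA10* at D6 were also lost without L-UBB+1 D6 replicate 2 (-0.85 and -0.96), that of *VPH1* without L-UBB+1 D6 replicate 1 (-0.99), and that of *VMA3* without either control EX array (adjusted p = 0.00261).

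In the V1 sector, 5 of 8 subunits were called lower at D6 (62.5%) and 6 at EX (75%), above the shares of all genes. The lowest values came from *VMA5*, *VMA13* and *VMA7*. *VMA5* encodes subunit C, which leaves the pump when the sectors separate. It measured 7.50 and 7.37 on the L-UBB+1 D6 arrays, against 10.26 and 10.20 on the control D6 arrays, and 7.36 and 7.54 on the L-UBB+1 EX arrays, against 10.19 and 10.20 on the control EX arrays. The 4 arrays of each strain lay close together, far closer than the strains lay to each other. The log2 fold change was -2.79 ± 0.10 at D6 (6.93-fold lower, adjusted p = 1.15e-06), the lowest of any member at D6, and -2.74 ± 0.10 at EX (6.70-fold lower, adjusted p = 1.46e-06).

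*VMA13* encodes subunit H, which keeps free V1 from hydrolysing ATP. Its level was 8.05 and 8.01 on the L-UBB+1 D6 arrays, against 10.68 and 10.51 on the control D6 arrays, and 7.98 and 8.01 on the L-UBB+1 EX arrays, against 10.37 and 10.51 on the control EX arrays. The log2 fold change was -2.57 ± 0.10 at D6 (5.92-fold lower, adjusted p = 1.45e-06) and -2.45 ± 0.10 at EX (5.45-fold lower, adjusted p = 1.75e-06). *VMA7*, for subunit F of the central stalk, measured 8.27 and 7.99 on the L-UBB+1 D6 arrays, against 10.03 and 10.06 on the control D6 arrays, and 7.85 and 8.19 on the L-UBB+1 EX arrays, against 10.19 and 10.16 on the control EX arrays. The strains were again apart on every array, with log2 fold changes of -1.91 ± 0.14 at D6 (3.77-fold lower, adjusted p = 1.43e-05) and -2.16 ± 0.14 at EX (4.46-fold lower, adjusted p = 8.9e-06).

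The nucleotide-binding subunits moved less. *VMA2*, for subunit B, was called lower in both phases, by 2.64-fold at D6 (adjusted p = 4.56e-05) and 2.32-fold at EX (adjusted p = 9.92e-05), where the call was lost without control EX replicate 2 (adjusted p = 0.00149). *VMA1*, for the catalytic subunit A, was not called, with 1.67-fold lower levels at D6 (adjusted p = 0.000394) and 1.31-fold at EX (adjusted p = 0.0102), and the EX value missed adjusted p under 0.05 without L-UBB+1 EX replicate 2 (-0.34, adjusted p = 0.0646) or without control EX replicate 2 (-0.32, adjusted p = 0.0672). Of the stalk subunits, *VMA10* (subunit G) was called lower in both phases, with -1.09 ± 0.12 at D6 and -1.35 ± 0.12 at EX. *VMA8* (subunit D) lay at the fold threshold, with -0.99 ± 0.09 at D6 and -1.03 ± 0.09 at EX, and was called at EX alone, where the call was lost without L-UBB+1 EX replicate 1 (-0.988), and without control EX replicate 2 (-0.99979). *VMA4* (subunit E) was below it in both, with -0.57 ± 0.09 at D6 and -0.75 ± 0.09 at EX.

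The V0 sector showed smaller differences than the lowest V1 subunits, with 3 of 7 subunits called lower at D6 and 1 at EX. The D6 share of 42.9% was above the 18.5% of all genes, and the EX share of 14.3% below the 17.1%. *VMA16*, *VMA3* and *VMA11* encode the proteolipids of the rotating ring. *VMA16* measured 9.01 and 9.14 on the L-UBB+1 D6 arrays, against 10.51 and 10.57 on the control D6 arrays, and 9.12 and 9.06 on the L-UBB+1 EX arrays, against 10.45 and 10.47 on the control EX arrays. It was the 1 V0 subunit called in both phases, with log2 fold changes of -1.47 ± 0.09 at D6 (2.77-fold lower, adjusted p = 6.98e-06) and -1.37 ± 0.09 at EX (2.58-fold lower, adjusted p = 9.51e-06). *VMA3* measured 10.33 and 9.86 on the L-UBB+1 D6 arrays, against 11.12 and 11.23 on the control D6 arrays, and 9.91 and 10.24 on the L-UBB+1 EX arrays, against 11.14 and 11.10 on the control EX arrays. Its fold changes of -1.08 ± 0.18 at D6 and -1.04 ± 0.18 at EX were alike, but the adjusted p lay on either side of the threshold (0.000827 at D6 and 0.00105 at EX).

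The V0 subunit a comes in a vacuolar form, from *VPH1*, and a Golgi and endosomal form, from *STV1*. *VPH1* measured 9.66 and 9.99 on the L-UBB+1 D6 arrays, against 10.96 and 10.99 on the control D6 arrays, and 10.06 and 9.88 on the L-UBB+1 EX arrays, against 10.66 and 10.83 on the control EX arrays. The log2 fold change was -1.15 ± 0.14 at D6 (2.22-fold lower, adjusted p = 0.000152) and -0.78 ± 0.14 at EX (1.71-fold lower, adjusted p = 0.00133), so that it was called at D6 alone. *STV1* was lower by 1.69-fold at D6 (adjusted p = 0.00153) and by 1.63-fold at EX (adjusted p = 0.00242), past the looser threshold alone. The 3 remaining V0 subunits, *VMA6*, *VMA9* and *VMA11*, were also lower at the looser threshold, with log2 fold changes of -0.70 to -0.62 at D6 and of -0.92 to -0.61 at EX.

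**Figure D3:**
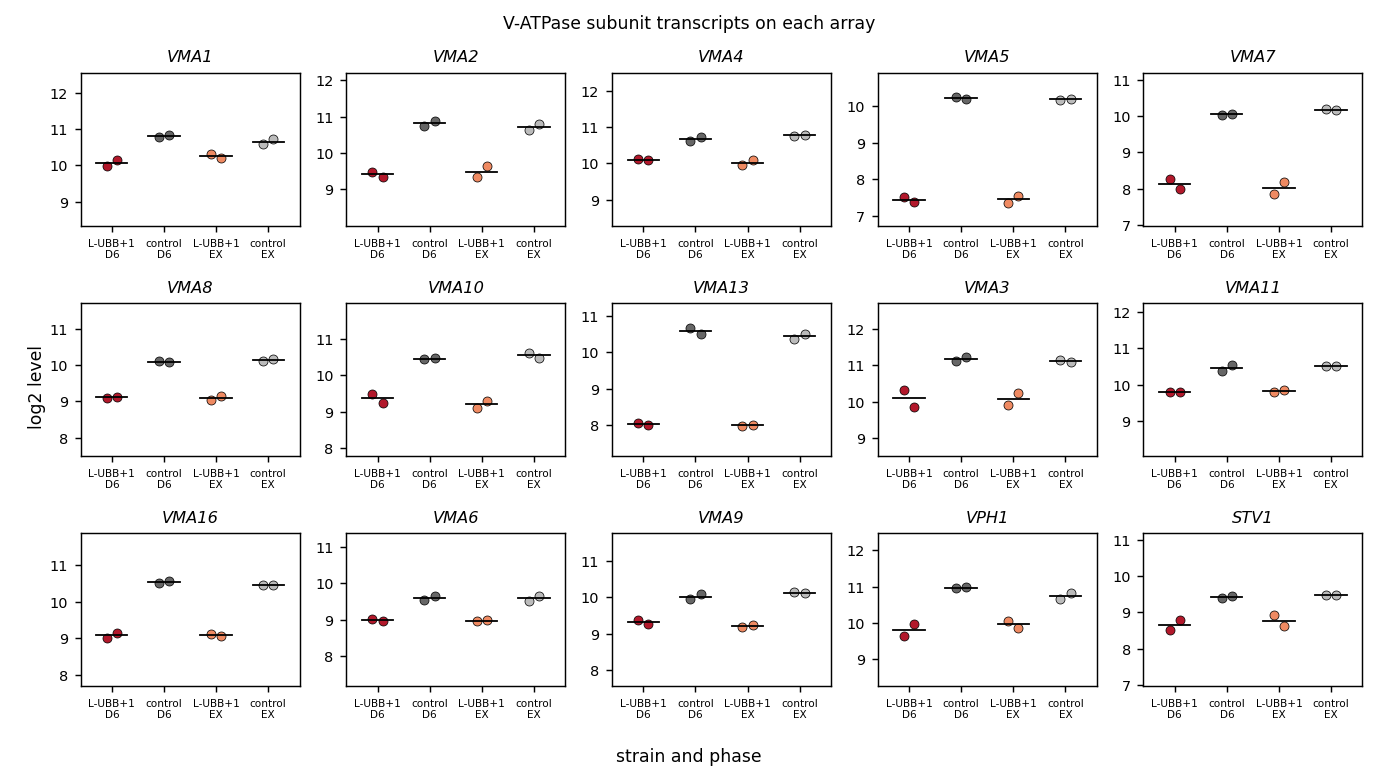
Log2 level (vertical axis) of the 15 V-ATPase subunits on each array, with L-UBB+1 left of control within D6 and EX, each point 1 array and each bar the mean of 2. For all 15 subunits the L-UBB+1 arrays lie below the control arrays of the same phase, with the widest gaps for *VMA5* and *VMA13*.

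Of the 3 factors that build V0 in the endoplasmic reticulum, 2 were called lower in both phases (66.7%), beside 18.5% of all genes at D6 and 17.1% at EX. *RAV1* and *RAV2*, subunits of the RAVE complex that reassembles V1 with V0, passed no threshold. *VMA22* measured 7.58 and 7.17 on the L-UBB+1 D6 arrays, against 8.48 and 8.53 on the control D6 arrays, and 7.08 and 7.46 on the L-UBB+1 EX arrays, against 8.91 and 8.63 on the control EX arrays. *VPH2*, whose product acts in a complex with Vma22, measured 7.23 and 7.49 on the L-UBB+1 D6 arrays, against 8.49 and 8.60 on the control D6 arrays, and 7.42 and 7.31 on the L-UBB+1 EX arrays, against 8.86 and 8.66 on the control EX arrays. Both genes were called lower in both phases, with groups that did not overlap. *VMA22* had log2 fold changes of -1.13 ± 0.18 at D6 (adjusted p = 0.000862) and -1.50 ± 0.18 at EX (adjusted p = 0.000198), and *VPH2* of -1.18 ± 0.13 at D6 (adjusted p = 8.65e-05) and -1.39 ± 0.13 at EX (adjusted p = 3.91e-05).

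*VMA22* was among the less stable calls. Its D6 call was lost without either control array of D6 or of EX, with adjusted p-values from 0.00181 to 0.00823 and log2 fold changes that stayed between -1.16 and -1.11, and also without L-UBB+1 D6 replicate 2 (-0.93, adjusted p = 0.00393). Its EX call was lost without L-UBB+1 EX replicate 1 or either control EX array, with adjusted p-values from 0.00117 to 0.00252. The D6 calls of *VMA22* and *VMA3* were also lost with arrays centred on the median (adjusted p = 0.00106 and 0.00105) and in a fit on the 2 groups compared, and that of *VMA3* after quantile normalization. *VMA21*, which escorts V0 out of the endoplasmic reticulum, measured 9.29 and 9.16 on the L-UBB+1 D6 arrays, against 9.45 and 9.48 on the control D6 arrays, and 9.05 and 9.26 on the L-UBB+1 EX arrays, against 9.82 and 9.58 on the control EX arrays. Its log2 fold change was -0.24 ± 0.12 at D6 (adjusted p = 0.105) and -0.54 ± 0.12 at EX (adjusted p = 0.00461), which passed the looser threshold at EX alone.

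*RAV1* measured 7.75 and 7.53 on the L-UBB+1 D6 arrays, against 7.39 and 7.54 on the control D6 arrays, and 7.56 and 7.68 on the L-UBB+1 EX arrays, against 7.73 and 7.65 on the control EX arrays. *RAV2* measured 8.80 and 8.44 on the L-UBB+1 D6 arrays, against 8.61 and 8.48 on the control D6 arrays, and 8.48 and 8.70 on the L-UBB+1 EX arrays, against 9.03 and 8.71 on the control EX arrays. The strains overlapped for both genes at D6 and for *RAV1* at EX. The 95% interval of the log2 fold change of *RAV1* ran from -0.092 to 0.44 at D6 and from -0.34 to 0.20 at EX, and that of *RAV2* from -0.31 to 0.47 at D6 and from -0.66 to 0.11 at EX. A difference of the size seen for *VMA5* or *VMA2* lay outside all of these intervals. The EX interval of *RAV2* included the smaller EX changes of *VMA1* (-0.39) and *VMA6* (-0.61). A difference between the RAVE genes and the pump genes was not tested.

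**Figure D4:**
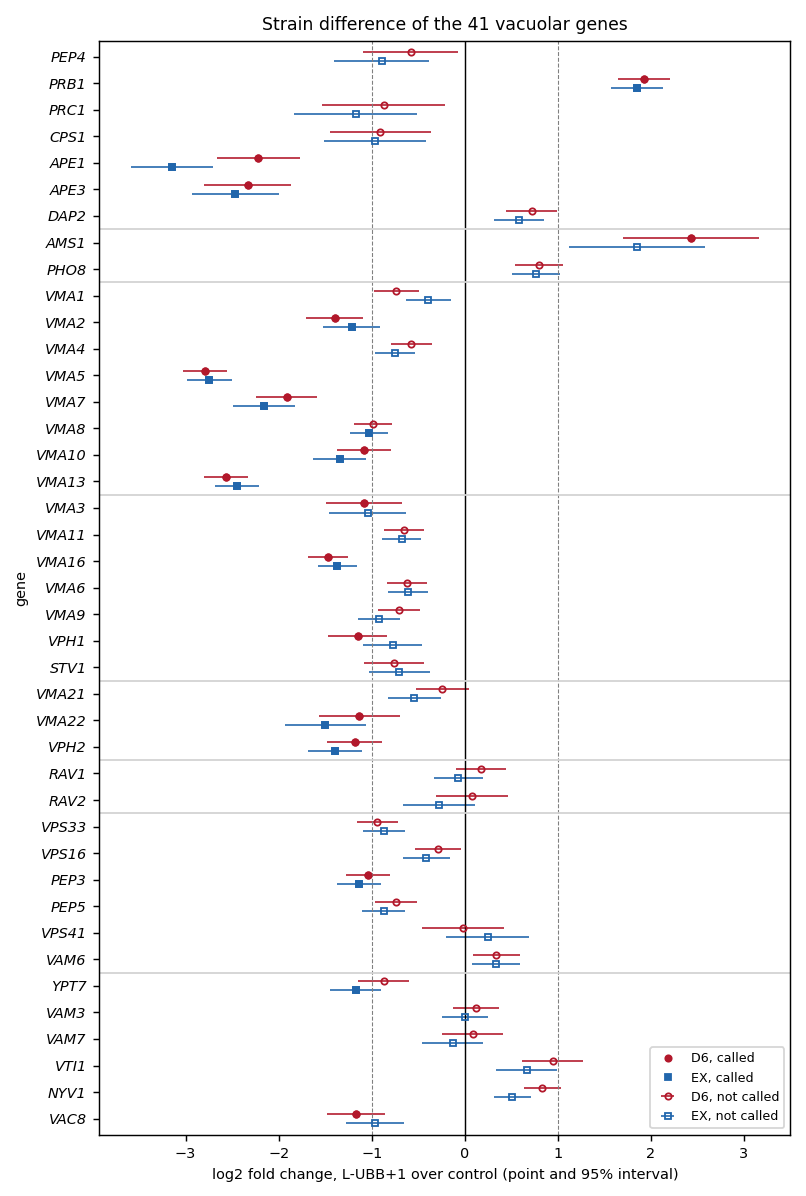
Log2 fold change of L-UBB+1 over control for each of the 41 genes at D6 and at EX, with 95% intervals as bars, genes down the page in functional groups, and filled points for called genes and open points for genes not called. The 15 V-ATPase subunits all lie left of 0, *PRB1* and *AMS1* lie right of 1, and the intervals of *RAV1*, *RAV2*, *VPS41*, *VAM3* and *VAM7* include 0 in both phases.

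The fusion genes were mixed, and the parts of HOPS went different ways. HOPS is built on a core of Vps33, Vps16, Pep3 and Pep5, which it shares with the endosomal CORVET complex, and it is made specific by Vps41 and Vam6. The 4 core genes were lower at the looser threshold in both phases, *VPS16* only narrowly, while *VAM6* was higher at that threshold and *VPS41* passed neither.

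*PEP3*, the Vps18 gene, measured 6.74 and 6.68 on the L-UBB+1 D6 arrays, against 7.75 and 7.75 on the control D6 arrays, and 6.63 and 6.82 on the L-UBB+1 EX arrays, against 7.92 and 7.80 on the control EX arrays. It was the 1 HOPS gene called, at -1.04 ± 0.10 at D6 (2.05-fold lower, adjusted p = 5.7e-05) and -1.14 ± 0.10 at EX (2.20-fold lower, adjusted p = 3.75e-05), and its D6 call was lost after quantile normalization, at -0.97. *VPS33* encodes the SNARE-binding subunit of the core. Its level was 7.12 and 7.01 on the L-UBB+1 D6 arrays, against 8.05 and 7.95 on the control D6 arrays, and 7.01 and 6.92 on the L-UBB+1 EX arrays, against 7.87 and 7.79 on the control EX arrays. The arrays were as cleanly apart as for *PEP3*, but the log2 fold changes of -0.94 ± 0.09 at D6 (adjusted p = 6.7e-05) and -0.87 ± 0.09 at EX (adjusted p = 0.000104) stayed under the fold for a call.

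*PEP5*, the Vps11 gene, measured 6.86 and 6.74 on the L-UBB+1 D6 arrays, against 7.59 and 7.48 on the control D6 arrays, and 6.79 and 6.69 on the L-UBB+1 EX arrays, against 7.64 and 7.59 on the control EX arrays. Its log2 fold change was -0.74 ± 0.10 at D6 (adjusted p = 0.000278) and -0.87 ± 0.10 at EX (adjusted p = 0.000119), again short of a call by its size. *VPS16* was lower by 1.22-fold at D6 (adjusted p = 0.0391) and 1.33-fold at EX (adjusted p = 0.00898), and missed the looser threshold at D6 when either array of control D6, of control EX, or L-UBB+1 D6 replicate 2 was left out, and at EX without L-UBB+1 EX replicate 1 (-0.33, adjusted p = 0.0651) or control EX replicate 1 (-0.39, adjusted p = 0.0503). *VAM6* was higher by 1.27-fold at D6 (adjusted p = 0.0229) and 1.26-fold at EX (adjusted p = 0.0257). It missed the looser threshold at D6 without L-UBB+1 D6 replicate 2 (0.26, adjusted p = 0.126) or either control D6 array, and at EX without L-UBB+1 EX replicate 1 (0.23, adjusted p = 0.166) or either control EX array. *VPS41* had a 95% interval of -0.46 to 0.43 at D6 and of -0.20 to 0.69 at EX.

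Among the remaining fusion genes, the Rab and *VAC8* were lower and a pair of SNAREs higher. *YPT7*, the Rab that recruits HOPS, measured 9.28 and 9.17 on the L-UBB+1 D6 arrays, against 10.08 and 10.12 on the control D6 arrays, and 9.10 and 9.21 on the L-UBB+1 EX arrays, against 10.47 and 10.20 on the control EX arrays. Its log2 fold change was -0.87 ± 0.12 at D6 (1.83-fold lower, adjusted p = 0.000284) and -1.17 ± 0.12 at EX (2.25-fold lower, adjusted p = 6.22e-05), so that it was called at EX alone. That call was lost when 1 L-UBB+1 array of each phase was left out together, with adjusted p-values of 0.00114 and 0.00165.

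*VAC8* encodes an armadillo-repeat protein of the vacuole membrane needed for vacuole inheritance and fusion. It measured 8.33 and 8.11 on the L-UBB+1 D6 arrays, against 9.28 and 9.49 on the control D6 arrays, and 8.15 and 8.39 on the L-UBB+1 EX arrays, against 9.19 and 9.28 on the control EX arrays. The log2 fold change was -1.17 ± 0.13 at D6 (2.25-fold lower, adjusted p = 0.000123) and -0.97 ± 0.13 at EX (1.96-fold lower, adjusted p = 0.000347), a call at D6 alone. That call was one of 6 lost without control D6 replicate 2, where the D6 count of members called lower was 8 and the adjusted p of *VAC8* was 0.00146, and the others were *VMA3*, *VMA10*, *VPH1*, *VMA22* and *VPH2*.

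Vacuole fusion pairs the R-SNARE Nyv1 with Vam3, Vti1 and Vam7. *VTI1*, which also serves at the Golgi and endosomes, measured 9.88 and 10.21 on the L-UBB+1 D6 arrays, against 9.197 and 9.002 on the control D6 arrays, and 10.11 and 9.95 on the L-UBB+1 EX arrays, against 9.42 and 9.31 on the control EX arrays. Its log2 fold change was 0.94 ± 0.14 at D6 (1.92-fold, adjusted p = 0.0005) and 0.67 ± 0.14 at EX (1.59-fold, adjusted p = 0.00326). *NYV1* measured 10.23 and 10.26 on the L-UBB+1 D6 arrays, against 9.39 and 9.43 on the control D6 arrays, and 10.25 and 10.31 on the L-UBB+1 EX arrays, against 9.78 and 9.75 on the control EX arrays. Every L-UBB+1 array lay above every control array for both SNAREs, and the log2 fold change of *NYV1* was 0.83 ± 0.08 at D6 (adjusted p = 6.65e-05) and 0.51 ± 0.08 at EX (adjusted p = 0.000931), under the fold for a call. The syntaxin gene *VAM3* had a 95% interval of -0.12 to 0.37 at D6 and of -0.25 to 0.25 at EX, and *VAM7* of -0.24 to 0.41 at D6 and of -0.46 to 0.20 at EX.

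Within a strain, no member passed an adjusted p of 0.05 between the phases. Between the L-UBB+1 D6 and L-UBB+1 EX arrays no member was called, and 0 of 5444 genes passed an adjusted p of 0.05 (0% of those tested), with 0 members and 10 of all genes at an unadjusted p under 0.05. The members' log2 differences ran from -0.19 to 0.16. These are the arrays of which each lay closer to 1 array of the other phase than to its own replicate, and with the labels exchanged they would compare the strains at D6. The gaps between replicates 1 and 2 of these 2 groups correlated at -0.85 over all genes. The fit did not model this dependence, so its low counts cannot show that the phases were alike. Between the control D6 and control EX arrays no member was called either, and none passed an adjusted p of 0.05, which 191 of all genes (3.51%) did. At an unadjusted p under 0.05 there were 3 of the 41 members and 1480 of the 5444 genes. That no member passed an adjusted p of 0.05 depended on control D6 replicate 2.

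The lowest p between the phases of the control strain belonged to *APE1*, at -0.81 ± 0.19 (D6 minus EX, adjusted p = 0.0565). *NYV1* followed at -0.36 ± 0.084 (adjusted p = 0.0565), with *VAM7* at -0.34 (adjusted p = 0.17). The 2 phases did not overlap for 26 members in the control strain (63.4%, against 65.4% of all genes) and for 7 in the L-UBB+1 strain (17.1%, against 16.7% of all genes), so the members were near the background in both.

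The test of whether the strain difference itself changed with the phase found no member and no gene at an adjusted p under 0.05 (0% of 5444), with 3 of the 41 members and 868 of all genes at an unadjusted p under 0.05. For *APE1* the strain difference was 0.93 ± 0.27 log2 units less negative at D6 than at EX (adjusted p = 0.275). For *NYV1* it was 0.32 ± 0.12 larger at D6 (adjusted p = 0.287), and for *VMA1* it changed by -0.35 ± 0.15, more negative at D6 (adjusted p = 0.313). Genes called in 1 phase alone, such as *YPT7*, *VAC8*, *VPH1* and *AMS1*, are thus not shown to differ between the phases.

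**Figure D5:**
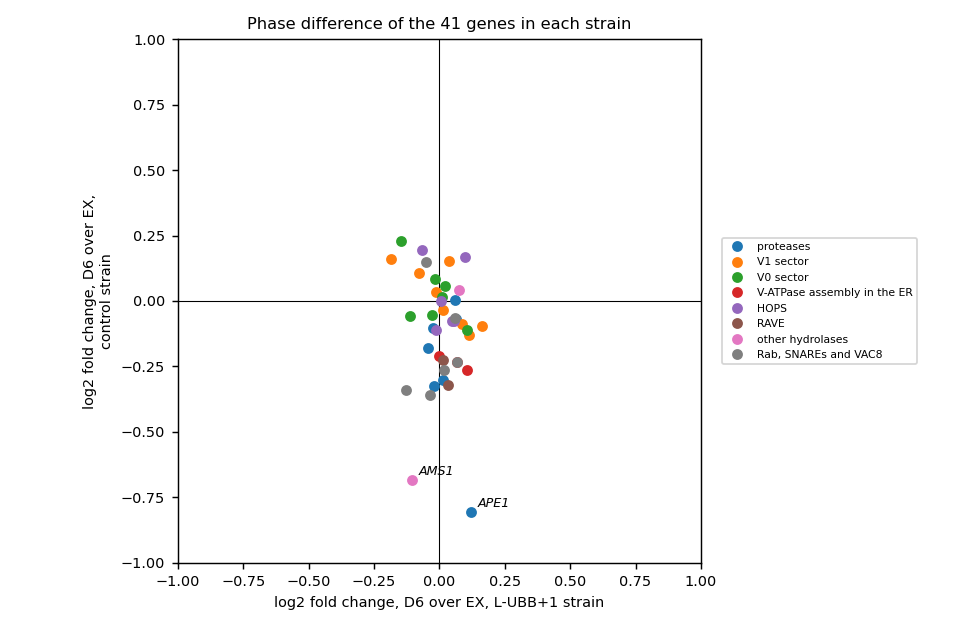
Log2 fold change of D6 over EX in the L-UBB+1 strain (horizontal axis) and in the control strain (vertical axis), each point 1 of the 41 genes, coloured by functional group. Members lie between -0.19 and 0.16 along the L-UBB+1 axis, and *APE1* (-0.81) and *AMS1* (-0.69) are the lowest along the control axis.

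Since the marker genes went against the labels of L-UBB+1 EX and control D6, the strains were also compared without these 4 arrays, as L-UBB+1 at D6 against control at EX, a contrast that mixes strain with phase and shares its arrays with those above. It gave 1 member called as higher and 14 as lower, beside a background of 16.7% (higher) and 16.6% (lower). The V-ATPase subunits again were lower at adjusted p under 0.05 for all 15, as were 2009 of the 5444 genes, and 7 of the 15 were called (46.7%). *VMA5* had a log2 fold change of -2.76, *APE1* of -3.03 and *PRB1* of 1.83. *AMS1* was at 1.75 with an adjusted p of 0.0015 and was not called. In the complementary contrast of the doubted groups, L-UBB+1 at EX against control at D6, 2 members were called as higher and 15 as lower, beside a background of 18.4% (higher) and 18.6% (lower), with *VMA5* at -2.78, *APE1* at -2.34 and *PRB1* at 1.95.

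Neighbouring genes of the same pathways, 66 listed by function, were followed in the same fit, and 63 of them were measured. The number called was 11 higher and 9 lower on day 6, and 12 higher and 11 lower at EX, which is near the shares of all genes given above. Of the 12 vacuolar fusion members, 2 were called lower in each phase (16.7%) and none higher. Of 9 endosomal fusion genes, 5 were called higher in both phases (55.6%) and none lower. Among all genes 17.9% were called higher at D6 and 17.2% at EX. Among the endosomal genes, *YPT53*, an endosomal Rab, was 8.77-fold higher at D6 and 5.30-fold higher at EX. *PEP12*, the endosomal syntaxin, was 4.26-fold higher at D6 and 3.18-fold higher at EX. *VPS3*, for a CORVET subunit outside the core shared with HOPS, was called higher in both phases (log2 fold change 1.10 at D6 and 1.09 at EX). It was picked after its values were seen, and values of other subunits particular to CORVET are not given here. The core genes that CORVET shares with HOPS were lower at the looser threshold. A test of the one list against the other was not made.

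Of 8 other fusion factors, 2 were called higher in both phases (25%), *SEC17* and *GYP7*. The number called lower was 1 at D6 (12.5%) and 2 at EX (25%). All genes gave 17.9% higher and 18.5% lower at D6, and 17.2% and 17.1% at EX. *GYP7*, the GTPase-activating protein for Ypt7, was higher by 1.86 ± 0.11 at D6 and 1.75 ± 0.11 at EX, while *SEC18*, the ATPase that disassembles SNARE complexes, was lower by 2.73-fold at D6 and 2.84-fold at EX. Its partner Sec17 had log2 fold changes of 1.36 at D6 and 1.05 at EX. Of 4 accessory genes of the V-ATPase, *PKR1*, needed for pump assembly in the endoplasmic reticulum, was 5.42-fold lower at D6 and 4.88-fold lower at EX, in the direction of *VMA22* and *VPH2*. *SKP1*, a subunit of RAVE that also serves in SCF ubiquitin ligases, was 3.06-fold higher at D6 and 2.43-fold higher at EX.

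Of 5 other vacuolar hydrolases, 2 were called higher in both phases (40%), and 2 were called lower at D6 (40%) and 1 at EX (20%). The list is small, and the shares of all genes were 17.9% higher and 18.5% lower at D6, and 17.2% and 17.1% at EX. *ATH1*, acid trehalase, was 6.54-fold higher at D6 and 4.20-fold higher at EX, and *PPN1*, a polyphosphatase, 2.52-fold lower at D6 and 3.31-fold lower at EX. The 3 genes for inhibitors of vacuolar proteases were spread wide. *PAI3*, the inhibitor of proteinase A, had log2 fold changes of 2.33 ± 0.41 at D6 (adjusted p = 0.00123) and 1.33 ± 0.41 at EX (adjusted p = 0.019) and was not called. *PBI2*, the inhibitor of proteinase B, stood opposite to its target *PRB1*, with -1.31 ± 0.30 at D6 (adjusted p = 0.00467) and -2.24 ± 0.30 at EX (adjusted p = 0.000293), a call at EX alone.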

How the data were processed

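The arrays were scanned at a core facility. The authors made log2 expression values per probe set from the scans in R with the PIANO package, and the deposited table of these values, already normalized between arrays, was used as it stands. The submitters' processing notes name R 3.2.3, while for the normalization and the summarization of probes the method was not stated in the methods and labels used here. Of 5705 probe sets, 5489 had 1 gene in the platform annotation (12 symbols updated through their gene ID) and 216 had none and were left out. For 43 genes with several probe sets the one of highest mean was taken, which left 5444 genes. Array medians ran from 8.34 to 8.42, and 2 arrays per group limit the precision. A model of 4 group means was fitted to all 8 arrays in limma 3.58.1 under R 4.3.3 (4 residual and 3.26 prior degrees of freedom), and the fit was tested on simulated data.

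The members, the lists of neighbouring genes and the tests were chosen with earlier results of these data known. Values on every array are given for the 3 members of each functional group with the largest mean fold change over both phases, and fold changes for every member called. The 3 members with the smallest p for the change of the strain difference are named too. *PEP4*, and the fold changes of uncalled members outside these rules, were added after their values were seen. Of each list of neighbouring genes, the 2 with the largest mean fold change are named, with *SEC17* and *VPS3* added after their values were seen. Alternatives were other normalizations, filters, probe set rules, thresholds and fits, and leaving out arrays. Same-numbered replicates did not deviate together in every pair of groups, so the numbers were not taken to pair cultures. Sequences and genome positions of the genes were not analysed here.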

Additional observations from a re-analysis of the deposited data

How the results depend on the processing

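Only 2 arrays per group were available, so calls near a threshold depended on single arrays. With 1 array left out, members called at D6 numbered 1 to 3 higher and 8 to 14 lower, the lowest without control D6 replicate 1 and control D6 replicate 2, and at EX 1 to 2 higher and 10 to 14 lower. V-ATPase subunits called lower numbered 5 to 8 in each phase, and those lower at adjusted p under 0.05 numbered 15 at D6 and 14 to 15 at EX. Between the phases of the control strain members were counted at adjusted p under 0.05 with no fold minimum, and that count depended on control D6 replicate 2. The numbers of members called for L-UBB+1 at D6 against control at EX also varied with the array left out. Neighbouring genes called numbered 10 to 12 higher and 8 to 11 lower at D6, and 10 to 12 higher and 7 to 11 lower at EX. Without both L-UBB+1 EX replicate 2 and L-UBB+1 D6 replicate 1, 1 member was called higher at D6.

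With adjusted p under 0.05 and no fold minimum, 7 members were higher and 28 lower at D6, and 7 higher and 29 lower at EX. All 15 V-ATPase subunits were lower in each phase. Neighbouring genes numbered 23 higher and 25 lower at D6 and 21 higher and 24 lower at EX. The shares of all genes were 37.7% higher and 38.4% lower at D6, and 37.2% and 37.5% at EX. For L-UBB+1 at D6 against control at EX, 7 members were higher and 29 lower, beside 2028 and 2009 of the 5444 genes. The number of members called higher at EX was 2 with adjusted p under 0.05 at the same fold, with the dimmest genes left out, and in a fit on the 2 groups compared, *AMS1* being at the threshold. It was also 2 for L-UBB+1 at D6 against control at EX with adjusted p under 0.05 at the same fold.

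The replicate numbers were not taken to pair the cultures, since the deviations of same-numbered arrays correlated between -0.85 and 0.36. The value of -0.85 was that of L-UBB+1 at D6 with L-UBB+1 at EX, whose differently numbered arrays lay closest. The main fit treats all arrays as independent, and whether those arrays share cultures was not tested. With the replicate number as a block, the D6 calls of *VMA22* (adjusted p = 0.00224) and *VMA3* (adjusted p = 0.00234) were lost and no other call of a member changed. A block with the replicate numbers of control D6 and of L-UBB+1 EX crossed was chosen after seeing the data. It gave 2 members called higher at EX and 2 called higher for L-UBB+1 at D6 against control at EX. At adjusted p under 0.05 with no fold minimum, it gave 2 members between the phases of the control strain. At that looser threshold it also gave 1 member for the change of the strain difference. Shares of all genes were not counted under this block.

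Signs turned only for values near 0 that passed no threshold. *RAV2* at D6 was -0.10 without L-UBB+1 D6 replicate 1, with L-UBB+1 EX replicate 2 kept or left out, and ran from -0.10 to 0.26 with 1 array left out. *VPS41* at D6 was 0.0060 after quantile normalization, 0.082 without L-UBB+1 D6 replicate 1, also with L-UBB+1 EX replicate 2 left out, and ran from -0.32 to 0.29 with 1 array left out. *VAM3* at EX was 0.016 after quantile normalization, 0.053 without L-UBB+1 EX replicate 1, also with L-UBB+1 D6 replicate 2 left out, and ran from -0.056 to 0.053 with 1 array left out. *VAM7* ran from -0.0057 to 0.17 at D6 and from -0.29 to 0.030 at EX with 1 array left out, and was 0.030 at EX without both L-UBB+1 EX replicate 2 and L-UBB+1 D6 replicate 1. The cause of these changes was not tested.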

Other observations

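Genes for sorting to the vacuole and for its membrane transport were read in the same way. Of 8 genes for cargo sorting, 2 were called lower in both phases (25%) and none higher. The shares of all genes were 17.9% higher and 18.5% lower at D6, and 17.2% and 17.1% at EX. *GGA2*, an adaptor for transport out of the Golgi, was 4.93-fold lower at D6 and 4.78-fold lower at EX in L-UBB+1, and *APL6*, a subunit of the AP-3 adaptor that carries the products of *PHO8* and *VAM3* to the vacuole, 2.30-fold lower at D6 and 2.68-fold lower at EX. In the retromer, which returns sorting receptors to the Golgi, 1 of 5 genes (20%) was called, *PEP8*, lower at EX alone. Its log2 fold change was -1.08 at EX and -0.67 at D6, and that of *VPS5* was -0.61 at EX and -0.54 at D6.

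Transporters of the vacuole membrane moved in both directions. Of 8 genes for amino acid transport, 1 was called higher and 2 lower in both phases. *YPQ1*, a lysine and arginine transporter, was 3.97-fold lower at D6 and 2.98-fold lower at EX, and *AVT1*, which takes up amino acids in exchange for protons, 3.03-fold lower at D6 and 2.99-fold lower at EX. The exporter gene *AVT4* was the one higher, by 2.47-fold at D6 and 3.19-fold at EX, and was picked after its values were seen. Of 9 genes for ion and polyphosphate transport, 1 was called, *YCF1*, lower in both phases (11.1%). *YCF1*, a transporter of glutathione conjugates, was 2.39-fold lower at D6 and 2.04-fold lower at EX. *PMC1*, a calcium pump, was 1.61-fold lower at D6 and 1.87-fold lower at EX without a call. Of 4 genes for the phosphoinositide kinase complex that sets vacuole size, 1 (25%) was called higher, *VAC7*, at EX alone. Its log2 fold change was 1.12 at EX and 0.78 at D6, and that of *FIG4* was 0.61 at EX and 0.72 at D6.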
